A study of Mus musculus with 6 samples.

Results

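Transcripts of 10 genes known from platelets and from megakaryocytes, the bone marrow cells that shed platelets, were followed in RNA sequencing of activated mouse CD8+ T cells. The genes are Pf4, Ppbp, Itga2b, Itgb3, Treml1, Vwf, Clu, Parvb, Plek and Gata1, and each was found once, by its gene name, among the 47729 genes listed in every library. The genes were chosen by their TPM values in this comparison, blebbistatin against vehicle, so the difference between the groups in these 10 genes is a description and carries no test. One group of 3 libraries came from cells given a vehicle, also for 24 h, and the labels do not state the composition of the vehicle. The other group of 3 libraries came from cells given blebbistatin at 2 µM for 24 h, a small molecule that blocks the motor activity of myosin II. Both groups were CD8+ T cells of spleen in the activated state. The labels do not give strain, age, the means of activation or the origin of each replicate, so p-values measure only the spread between these libraries, which may be technical.

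Platelets carry no nucleus and take their messenger RNA from the megakaryocyte. Their granules hold chemokines and adhesive proteins, which are released on activation, and their surface carries an integrin that binds fibrinogen and joins platelets to each other. Platelets also bind to white blood cells, and the genes encoding their granule and surface proteins are switched on in megakaryocytes by transcription factors of the GATA, ETS and RUNX families. Several of the 10 genes are also used elsewhere: Vwf in endothelium, Clu in many tissues, Plek in leukocytes, Itgb3 wherever it pairs with the alpha V subunit, and Gata1 in erythroid, mast cell, basophil and eosinophil lineages.

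Depth was even, with 18500000 to 19900000 implied fragments per library. T cell markers were present throughout, with Cd3e, a chain of the T cell receptor complex, at 285 to 331 TPM and Cd8a, a chain of the CD8 coreceptor, at 409 to 433 TPM (a level corrected for transcript length and library size). On the first principal component of all tested genes, which held 42.8% of the variance, vehicle libraries lay between -16.4 and -13.4, while blebbistatin 1, 2 and 3 lay at 30.5, 0.23 and 14.5. The test used limma with Benjamini-Hochberg adjustment on the 13372 genes that reached a mean of 1 TPM, and called 244 of them, or 1.82%, of which 76.6% were higher with blebbistatin (66.0% with median-ratio scaling). Without blebbistatin 2 the majority turned, with 45.5% of calls higher. Leaving out vehicle 1, 2 or 3 gave 13, 11 or 7 calls, and leaving out blebbistatin 1, 2 or 3 gave 120, 1090 or 3.

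All 10 genes stood higher in each blebbistatin library than in any vehicle library, where 18.0% of tested genes did so; the choice of the genes used this contrast, so nothing is read from that count. Their summed level was 103, 108 and 97.1 TPM with vehicle and 187, 200.2 and 202 TPM with blebbistatin. Ratios of the group means ran from 1.09 for Gata1 to 4.36 for Parvb. In bulk RNA, more cells or cell fragments of a type and more transcript per cell cannot be told apart.

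**Figure D1:**
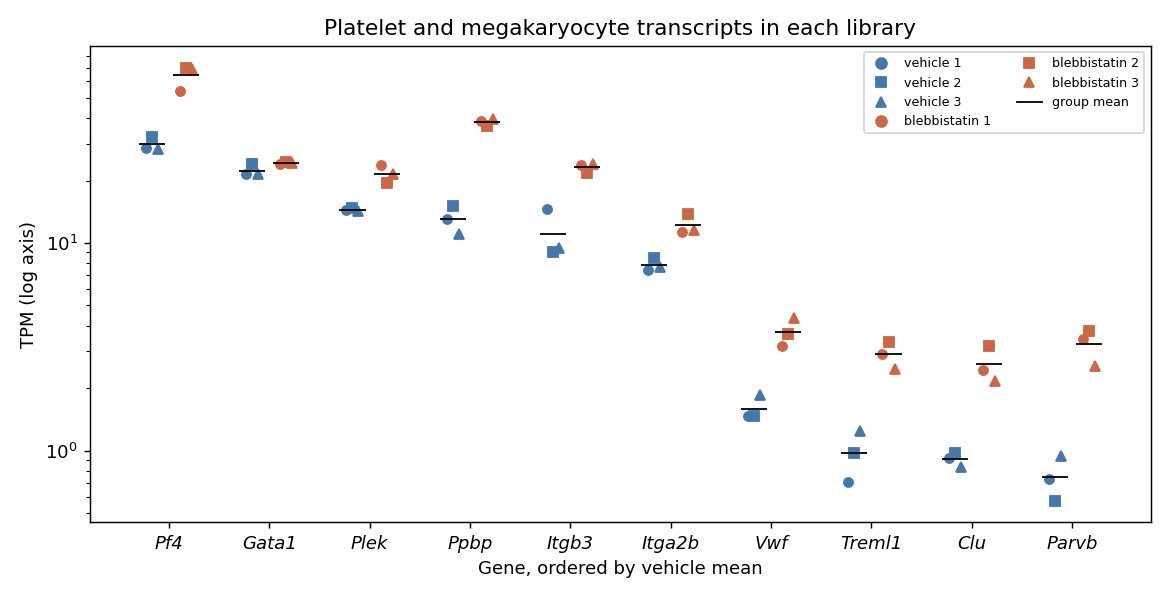
Level of each of the 10 genes in TPM (log axis) in the 3 vehicle libraries (blue) and the 3 blebbistatin libraries (orange), with symbols for the replicate number and a black line at the group mean. Gata1 is the gene whose groups lie closest, while Parvb shows a ratio of group means of 4.36.

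Promoter sequences are shown for the adjacent chemokine genes Pf4 and Ppbp, for the platelet integrin gene Itga2b and for Gata1, because the first 3 stood well above vehicle with blebbistatin while Gata1 lay within 1.10-fold of the vehicle mean in each blebbistatin library. RefSeq windows in build GRCm38.p6, from 250 bases before to 50 bases after the annotated start, were available for 7 of the 10 genes. For Itga2b, Gata1 and Plek the RefSeq start lies inside the gene span that GENCODE gives, so the windows do not sit at the outer end of the spans stated here. They are written 5′ to 3′ on the strand of the gene, at chr5:90772185-90772484 (plus strand) for Pf4, chr5:90768268-90768567 (plus) for Ppbp, chr11:102469834-102470133 (minus) for Itga2b and chrX:7967861-7968160 (minus) for Gata1. Capitals mark 3 kinds of short motif searched on both strands: GATA motifs (the letters AGATAA, or else the letters AGATAG, or else the letters TGATAA, or else the letters TGATAG), ETS motifs (the letters AGGAAG, or else the letters CGGAAG) and the TATA box (the letters TATAAA).
Pf4: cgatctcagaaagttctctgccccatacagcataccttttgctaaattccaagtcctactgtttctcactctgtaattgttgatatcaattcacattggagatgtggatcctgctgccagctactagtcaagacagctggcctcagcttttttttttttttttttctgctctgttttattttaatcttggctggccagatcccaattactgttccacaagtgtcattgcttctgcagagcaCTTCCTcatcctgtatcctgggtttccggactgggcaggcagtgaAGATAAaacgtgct
Ppbp: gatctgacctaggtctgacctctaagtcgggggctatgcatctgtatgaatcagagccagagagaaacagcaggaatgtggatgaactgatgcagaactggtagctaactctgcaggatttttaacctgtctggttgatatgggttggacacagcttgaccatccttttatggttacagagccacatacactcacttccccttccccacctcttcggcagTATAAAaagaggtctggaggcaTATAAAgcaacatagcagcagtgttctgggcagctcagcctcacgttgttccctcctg
Itga2b: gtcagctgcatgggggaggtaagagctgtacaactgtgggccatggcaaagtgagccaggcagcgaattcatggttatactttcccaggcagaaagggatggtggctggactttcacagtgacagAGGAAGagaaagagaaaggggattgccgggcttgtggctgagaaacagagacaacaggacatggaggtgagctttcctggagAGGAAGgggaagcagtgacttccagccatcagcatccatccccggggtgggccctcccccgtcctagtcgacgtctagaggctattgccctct
Gata1: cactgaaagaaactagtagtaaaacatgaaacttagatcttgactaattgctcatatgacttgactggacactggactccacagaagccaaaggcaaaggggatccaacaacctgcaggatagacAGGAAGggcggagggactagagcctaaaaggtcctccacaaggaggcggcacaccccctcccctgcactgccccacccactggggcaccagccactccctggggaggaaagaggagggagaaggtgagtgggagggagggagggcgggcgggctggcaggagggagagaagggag

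In the Pf4 window the GATA letters AGATAA began at base 37, counting the annotated start as base 1. The ETS letters AGGAAG lay on the opposite strand, 9 bases before the start. Ppbp held TATAAA 30 and 8 bases before its start, and neither of the other motifs. Itga2b held AGGAAG 125 and 43 bases before the start, and Gata1 held it 125 bases before. The windows of Treml1, Parvb and Plek held none of the motifs. Thus 1 of 7 windows held a GATA motif, 3 of 7 an ETS motif and 1 of 7 a TATA box, against 29.8%, 46.5% and 13.6% of 32851 windows of the same length over all genes. No 2 motifs overlapped in these windows. A match is a run of letters and not a bound site, and a missing match says only that these letters are not in this window.

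Pf4 and Ppbp encode chemokines stored in platelet alpha granules, platelet factor 4 and the precursor of beta-thromboglobulin. Both lie on the plus strand of chromosome 5 in GRCm38, Ppbp (ENSMUSG00000029372) at 90768518 to 90770063 and Pf4 (ENSMUSG00000029373) at 90772435 to 90773383, and no exon of either overlaps another gene. Pf4 stood at 28.8, 32.4 and 28.5 TPM in vehicle 1, 2 and 3 and at 53.8, 70.0 and 68.9 TPM in blebbistatin 1, 2 and 3. The lowest blebbistatin library, number 1, was 1.66 times the highest vehicle library. Means were 29.9 ± 2.21 and 64.2 ± 9.04 TPM (SD over n = 3 libraries per group, throughout), a difference of 1.07 on the log2(TPM + 1) scale with a standard error of 0.11. Ppbp was at 13.1, 15.04 and 11.04 TPM with vehicle and 38.8, 36.5 and 39.7 TPM with blebbistatin. Its blebbistatin libraries lay close together and all were at least 2.43 times the highest vehicle library. The Ppbp means of 13.1 ± 2.00 and 38.4 ± 1.64 TPM differ by 1.49 on the log2 scale (SE 0.11).

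The proportion of the pair is a description and carries no test, since both genes were chosen on this contrast. The ratio of the Ppbp level to the Pf4 level was 0.455, 0.464 and 0.388 in the vehicle libraries and 0.721, 0.522 and 0.577 in the blebbistatin libraries, so the groups did not overlap. Each Pf4 value rested on an implied 149 to 387 fragments and each Ppbp value on 113 to 397, for a counting error of 5.02% to 9.43%. Cxcl5, the chemokine gene on the other side of Ppbp, was at 0.182 to 0.298 TPM with vehicle and 0.339 to 0.676 TPM with blebbistatin. Of the other CXC chemokine genes listed for this locus, Cxcl1 and Cxcl3 reached at most 0.108 and 0.264 TPM in any library, and Cxcl2 and Cxcl15 were listed at 0 in all 6.

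Itga2b and Itgb3 encode the alpha IIb and beta 3 subunits of the platelet fibrinogen receptor. Both map to chromosome 11 in GRCm38, Itga2b (ENSMUSG00000034664) on the minus strand at 102453297 to 102470122 and Itgb3 (ENSMUSG00000020689) on the plus strand at 104608000 to 104670476. Itga2b was at 7.37, 8.43 and 7.62 TPM with vehicle and at 11.3, 13.8 and 11.6 TPM with blebbistatin. Every blebbistatin library lay above the vehicle libraries, by at least 1.34 times, and the means were 7.81 ± 0.557 and 12.2 ± 1.37 TPM (log2 difference 0.59, SE 0.10). Itgb3 was at 14.6, 9.06 and 9.45 TPM with vehicle and 23.7, 21.8 and 23.99 TPM with blebbistatin. Vehicle 1 stood apart from the other two vehicle libraries, and the blebbistatin libraries still began at 1.496 times its level. The Itgb3 means were 11.03 ± 3.08 and 23.2 ± 1.18 TPM (log2 difference 1.03, SE 0.17), and the ratio of means ran from 1.93 to 2.50 when each library was left out in turn.

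The beta 3 subunit also pairs with alpha V. Itgav, the gene of that subunit, stood at 11.04, 11.7 and 14.5 TPM with vehicle and 14.8, 12.997 and 14.1 TPM with blebbistatin, and the groups overlapped (log2 difference 0.16, limma adjusted p = 0.416). Per TPM of Itga2b there were 1.98, 1.07 and 1.24 TPM of Itgb3 with vehicle and 2.09, 1.58 and 2.07 TPM with blebbistatin, so beta 3 messenger exceeded alpha IIb messenger in all 6 libraries and this proportion overlapped between groups. Pf4 per Itga2b, in contrast, was 3.74 to 3.90 with vehicle and 4.75 to 5.94 with blebbistatin.

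Treml1, Vwf and Clu encode further granule or granule-membrane proteins and were near 1 TPM with vehicle. Treml1 (ENSMUSG00000023993, chromosome 17, plus strand, 48359916 to 48367174) encodes a receptor of the alpha granule membrane that moves to the surface of activated platelets. Its levels were 0.709, 0.978 and 1.24 TPM with vehicle and 2.90, 3.33 and 2.48 TPM with blebbistatin, resting on 9 to 16 and 32 to 44 implied fragments. Vwf (ENSMUSG00000001930, chromosome 6, plus strand, 125546774 to 125686679) encodes von Willebrand factor, which tethers platelets to injured vessel walls. Vwf was at 1.46, 1.46 and 1.86 TPM with vehicle and 3.19, 3.64 and 4.37 TPM with blebbistatin, on 66 to 90 and 167 to 188 implied fragments. Clu (ENSMUSG00000022037, chromosome 14, plus strand, 65968483 to 65981548) encodes clusterin, a secreted chaperone also held in platelet granules. It stood at 0.918, 0.973 and 0.837 TPM with vehicle and 2.44, 3.18 and 2.17 TPM with blebbistatin, on 7 or 8 and 22 to 31 implied fragments. The groups did not overlap in any of the 3, with log2 differences of 0.99 (SE 0.16) for Treml1, 0.87 (SE 0.14) for Vwf and 0.90 (SE 0.15) for Clu. Counting error alone reached 33.7% for Treml1 and 38.2% for Clu in the library with the fewest fragments.

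Relative to Pf4, the level of Vwf was 0.0451 to 0.0652 with vehicle and 0.0520 to 0.0635 with blebbistatin, so these proportions overlapped. For Treml1 the corresponding values were 0.0246 to 0.0435 and 0.0360 to 0.0540, again with an overlap.

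Parvb and Plek encode proteins of the cytoplasm. Parvb (ENSMUSG00000022438, chromosome 15, plus strand, 84232043 to 84315688) encodes beta-parvin, which links integrins to actin in a complex with integrin-linked kinase. Its levels were 0.731, 0.574 and 0.939 TPM with vehicle and 3.45, 3.76 and 2.57 TPM with blebbistatin. That is the largest ratio of means among the 10 genes, 4.36, and it lay between 3.90 and 4.998 with each library left out in turn, but the vehicle values rest on 9 to 13 implied fragments. The vehicle TPM did not follow the fragments: vehicle 3 had the highest TPM, 0.939, on 9 fragments, and vehicle 1 had 0.731 TPM on 13. The cause of that mismatch was not tested. Parvg, the paralog found in blood cells, had means of 127 ± 1.98 and 131 ± 4.09 TPM (adjusted p = 0.649 by limma), so Parvg exceeded Parvb by 138 to 221 times with vehicle and by 33.6 to 51.6 times with blebbistatin. Parva was listed at 0 in all 6 libraries.

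Plek (ENSMUSG00000020120, chromosome 11, minus strand, 16971206 to 17052381) encodes pleckstrin, the main substrate of protein kinase C in platelets, also present in leukocytes. It was at 14.4, 14.7 and 14.3 TPM with vehicle and 23.6, 19.6 and 21.5 TPM with blebbistatin. The vehicle libraries differed by little (coefficient of variation 1.59%), and the lowest blebbistatin library was 1.33 times the highest of them. That variation is smaller than the counting error of 4.30% to 4.42% in the vehicle libraries, so it is not read as precision. The log2 difference was 0.54 (SE 0.09), and 4.44% of the exon length of Plek overlaps Cnrip1, whose reads cannot be told apart there.

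Gata1 (ENSMUSG00000031162, chromosome X, minus strand, 7959260 to 7978071) encodes the zinc finger factor that drives megakaryocyte and erythroid genes. It was the second most abundant of the 10 with vehicle, at 21.4, 24.03 and 21.4 TPM, and stood at 24.06, 24.5 and 24.4 TPM with blebbistatin. The groups did not overlap, but blebbistatin 1 and vehicle 2 were nearly equal, and the means of 22.3 ± 1.52 and 24.3 ± 0.238 TPM differ by 0.12 on the log2 scale (SE 0.07). The coefficient of variation with blebbistatin, 0.978%, is smaller than the counting error, which was at least 5.82% in each library. Per TPM of Pf4 there were 0.741 to 0.751 TPM of Gata1 with vehicle and 0.350 to 0.447 TPM with blebbistatin. Gata3, the GATA factor of T cells, stood at 19.2 ± 1.14 and 19.3 ± 1.15 TPM (adjusted p = 0.953 by limma), below Gata1 in each library, at 0.750 to 0.909 of its level.

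**Figure D2:**
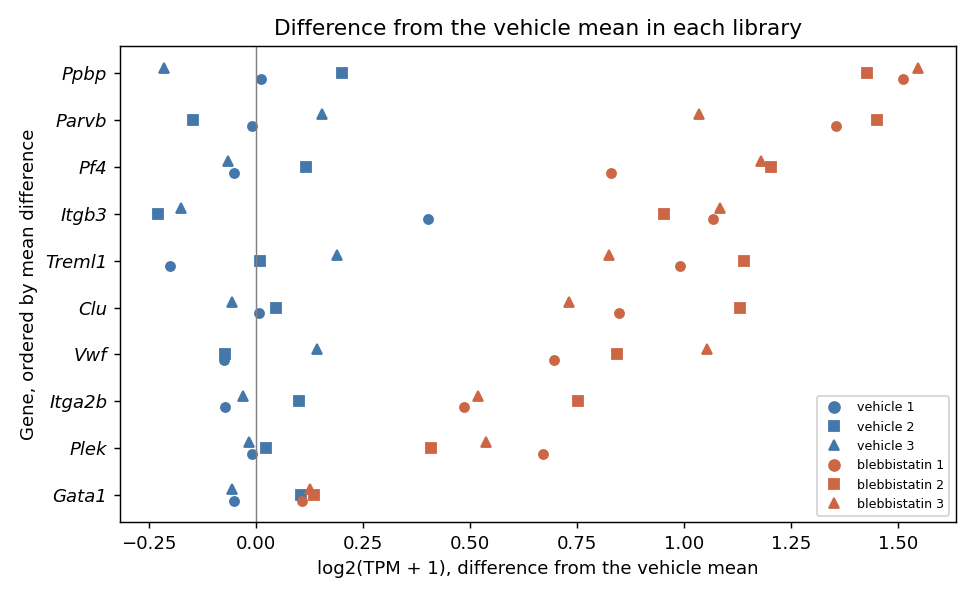
Difference of log2(TPM + 1) from the vehicle mean (x axis) for each gene (y axis) in each library, vehicle in blue and blebbistatin in orange, with symbols for the replicate number. Blebbistatin libraries of Ppbp lie near 1.49 and those of Gata1 near 0.12, and no blebbistatin library is the highest or the lowest in all genes.

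In order of mean level with vehicle, Pf4 came first, then Gata1, Plek, Ppbp, Itgb3, Itga2b, Vwf, Treml1, Clu and Parvb. Library values of neighbours overlapped between Plek and Ppbp, Ppbp and Itgb3, Treml1 and Clu, and Clu and Parvb. With blebbistatin Ppbp was second, followed by Gata1, Itgb3, Plek, Itga2b, Vwf, Parvb, Treml1 and Clu. Here the values overlapped between Itgb3 and Plek and along the run from Vwf to Clu. In vehicle cells 38.4% of the 13372 tested genes had a higher mean than Pf4 and 99.6% a higher mean than Parvb. All 10 passed the minimum mean of 1 TPM, but Treml1, Clu and Parvb did so only through the blebbistatin libraries, since their vehicle means were 0.975, 0.909 and 0.748 TPM.

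Blebbistatin 2, the treated library closest to vehicle on the first principal component, held the highest value of the treated libraries in 6 of the 10 genes and the lowest in 3. Blebbistatin 1, the farthest, held the highest in 1 and the lowest in 4. Plek followed the order of the libraries on that component, with blebbistatin 1 highest and blebbistatin 2 lowest, and Ppbp and Itgb3 were also lowest in blebbistatin 2. With each library left out in turn, the ratio of means stayed between 2.05 and 2.32 for Pf4, 2.73 and 3.18 for Ppbp, 1.47 and 1.63 for Itga2b and 1.42 and 1.56 for Plek.

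The wider platelet and megakaryocyte programme was examined through 76 other genes in 4 lists, of which 75 were in the files and 55 reached a mean of 1 TPM. By limma with Benjamini-Hochberg adjustment, 1 of the 55 rose and 1 fell, where 1.40% of all tested genes rose and 0.426% fell. Serpine2, a protease inhibitor, rose from 95.03 ± 2.69 to 141 ± 3.13 TPM (log2 difference 0.57, SE 0.05, adjusted p = 0.0143). Rasgrp2, which activates the small GTPase Rap1 in platelets and lymphocytes, fell from 183 ± 7.55 to 119 ± 11.2 TPM (log2 difference -0.62, SE 0.08, adjusted p = 0.0219). Both calls were lost without vehicle 1, 2 or 3 or blebbistatin 3. The median log2 difference of the 55 was 0.11 against 0.03 over all tested genes, and 31 were above 0 and 24 below. Of the 55, 7 had a vehicle mean under 1 TPM and passed the minimum only through the blebbistatin libraries, all of them above 0. P2ry12, below 0, passed only through the vehicle libraries (means of 1.23 and 0.908 TPM). The list medians and counts that follow include these genes, so no direction is read from them or from the 55.

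Among 14 granule and secreted proteins, 9 were tested, with Serpine2 the sole call (6 at an unadjusted p under 0.05, where 22.9% of all tested genes were) and a median of 0.57. The uncalled members with the highest levels were Srgn, the granule proteoglycan serglycin (403 ± 65.9 and 457 ± 50.3 TPM, adjusted p = 0.423 by limma), and Tgfb1, a growth factor (193 ± 0.366 and 148 ± 31.8 TPM, adjusted p = 0.164). Of 22 surface receptors in the files 16 were tested and 0 were called by limma (7 at an unadjusted p under 0.05, again against 22.9%), with a median of 0.21. Itgb1, the beta 1 integrin, was at 142 ± 1.68 and 139 ± 10.1 TPM and F2r, a thrombin receptor, at 81.9 ± 2.52 and 75.4 ± 3.59 TPM. Of 24 signalling, enzyme and cytoskeletal genes 18 were tested and only Rasgrp2 was called (9 at an unadjusted p under 0.05), with a median of -0.03. Rap1b, a small GTPase, was at 337 ± 1.11 and 366 ± 32.4 TPM and Fermt3, the integrin activator kindlin-3, at 265 ± 3.13 and 239 ± 27.9 TPM.

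Of 15 megakaryocyte transcription factors other than Gata1, 12 were tested and 0 were called by limma (3 at an unadjusted p under 0.05, against 22.9% of all tested genes), with a median of -0.08. Fli1, an ETS factor, was at 51.6 ± 2.86 and 56.6 ± 1.78 TPM (adjusted p = 0.266 by limma) and Ldb1, a bridging partner of GATA1, at 184 ± 5.80 and 177 ± 15.4 TPM (adjusted p = 0.674). Zfpm1, the GATA1 cofactor FOG1, stood at 29.1, 29.9 and 30.1 TPM with vehicle and 15.4, 29.7 and 22.1 TPM with blebbistatin (adjusted p = 0.247). Runx1 was at 4.71 ± 0.412 and 4.82 ± 0.775 TPM and Nfe2, a factor needed for platelet release, at 1.52 ± 0.269 and 2.31 ± 0.760 TPM. Zfpm1, Runx1 and Nfe2 were named after their values were seen. Without blebbistatin 2, Zfpm1, Mafk, Tgfb1 and Rasgrp2 were called lower, and Itga6, Selp, Serpine2 and Thbs1 were called higher.

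The members of these 4 lists were also split by mean level over the 6 libraries, a description made after the values were seen. A higher level with blebbistatin itself helps to place a gene in a bin, so nothing is read from a comparison of bins. Between 1 and 5 TPM, 12 of 23 genes lay above vehicle in every blebbistatin library and 1 below, where 16.8% of the 3230 genes at that level did so above and 6.16% below. At 5 TPM or more, 7 of 32 lay above and 7 below, where the shares over 10142 genes were 18.4% and 15.1%. Under 1 TPM, 8 of 20 lay above and 0 below, against 6.55% and 2.58% of 11453 genes above 0.

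The 12 genes at 1 to 5 TPM were Gp1ba, Gp5 and Gp9, which form the receptor for von Willebrand factor, Selp (P-selectin), Thbs1 (thrombospondin 1), Mmrn1 (multimerin 1), Ly6g6f, P2rx1, Rgs18, Tbxas1, Pla2g4a and Mef2c. Of these 12, 7 had a vehicle mean under 1 TPM and reached the bin only through the blebbistatin libraries: Gp9, Ly6g6f, Mmrn1, P2rx1, Tbxas1, Pla2g4a and Mef2c. Gp1ba stood at 1.13, 1.39 and 1.28 TPM with vehicle and 3.55, 3.57 and 2.02 TPM with blebbistatin (adjusted p = 0.0862 by limma). Gp9 was at 0.320, 0.818 and 0.480 TPM against 1.85, 2.95 and 1.66 TPM (adjusted p = 0.0639). Selp was at 2.76, 3.91 and 3.47 TPM against 6.16, 5.03 and 6.68 TPM (adjusted p = 0.0748). None of the 12 passed the limma test over all genes. Selp and Thbs1 were called higher without blebbistatin 2, and Thbs1 and Mmrn1 without a trend. Under 1 TPM, Clec1b, a platelet receptor for podoplanin, was at 0.129, 0.577 and 0.122 TPM with vehicle and 1.61, 1.19 and 1.17 TPM with blebbistatin. Tubb1, the tubulin of platelets, was at 0.241, 0.355 and 0.151 TPM against 0.871, 0.489 and 0.629 TPM.

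Other platelet genes at low level overlapped between the groups or were near 0. Gp1bb, the fourth chain of the von Willebrand factor receptor, was at 0.505, 0.820 and 0.465 TPM with vehicle and 0.517, 0.949 and 0.696 TPM with blebbistatin, and the groups overlapped. Gp6, a collagen receptor, stayed between 0.0564 and 0.300 TPM in all 6 libraries. Myl9, a myosin light chain of platelets, was listed at 0 in each library but blebbistatin 1, and Sparc, a granule protein, in each but vehicle 1.

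**Figure D3:**
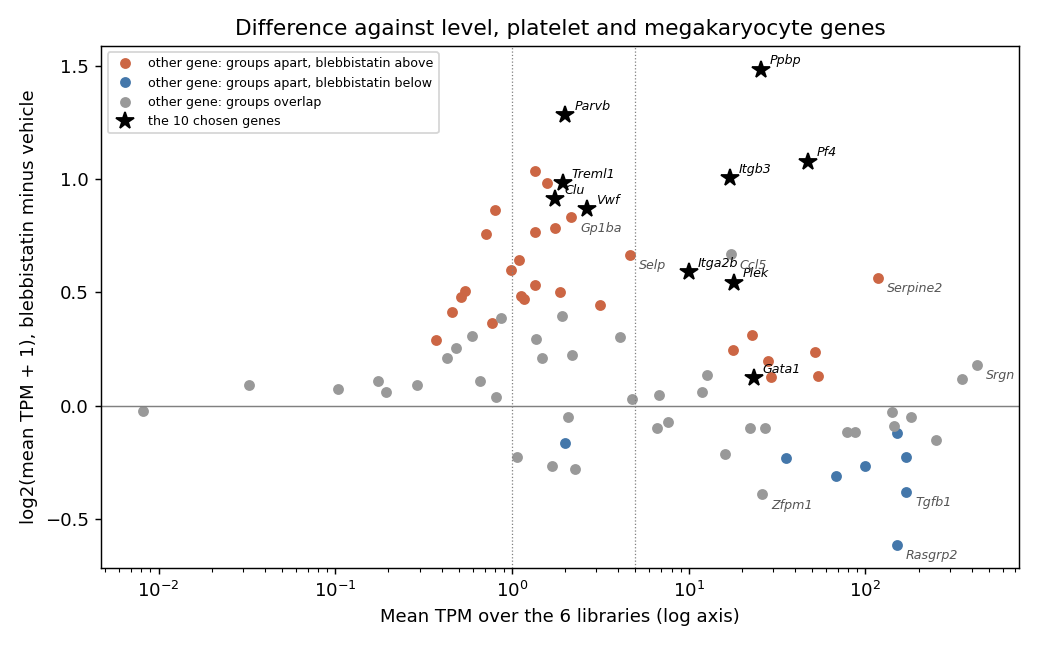
Difference between the groups in log2(mean TPM + 1), blebbistatin minus vehicle (y axis), against mean TPM over the 6 libraries (log x axis) for the 10 chosen genes (stars) and 75 other platelet and megakaryocyte genes (circles). Circle colours give whether the library values of the groups overlap, and dotted lines stand at 1 and 5 TPM. At 1 to 5 TPM 12 of 23 circles are orange and 1 is blue, where 16.8% and 6.16% of all genes at that level lay above and below. At 5 TPM or more 7 of 32 are orange and 7 are blue, where the shares were 18.4% and 15.1%. Nothing is read from a comparison of the bins.

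Markers of other cells that use some of these genes were read alongside, again with limma, and counts in brackets are tested genes at an unadjusted p under 0.05, which 22.9% of all tested genes reached. Of 12 erythroid markers 3 were tested and 0 were called (0), and their summed level was 6.82 to 8.38 TPM with vehicle and 6.04 to 8.74 TPM with blebbistatin. The haemoglobin genes Hbb-bt and Hba-a1 were at 1.82 ± 0.353 and 2.03 ± 0.517 TPM and at 1.52 ± 0.272 and 1.27 ± 0.0867 TPM, and Slc4a1, the red cell anion exchanger, was listed at 0 in all libraries. Of 9 mast cell and basophil markers 8 were tested and 0 were called (1), with sums of 45.4 to 47.4 and 46.6 to 49.6 TPM. Mcpt8 and Prss34, proteases of basophils, were at 13.5 ± 2.07 and 12.7 ± 0.329 TPM and at 11.8 ± 1.15 and 11.2 ± 1.502 TPM. The source of the Gata1 messenger was not tested.

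Of 9 endothelial and stromal markers 2 were tested and 0 were called (0), with sums of 31.02 to 33.4 and 32.5 to 39.8 TPM. Pecam1, an adhesion molecule of endothelium, platelets and leukocytes, was at 19.4 ± 1.67 and 23.5 ± 3.11 TPM and Egfl7, a secreted factor, at 12.5 ± 1.57 and 11.98 ± 3.24 TPM. The endothelial cadherin Cdh5 reached at most 0.0817 TPM and was at 0 with vehicle, while Col3a1 and Dcn were at 0 in all libraries. Of 11 monocyte, macrophage and dendritic cell markers 2 were tested and 0 were called (1), with sums of 90.5 to 91.6 and 71.2 to 99.6 TPM, of which Cst3 held most at 83.7 ± 0.429 and 71.6 ± 15.1 TPM. Cd68 was at 6.14 ± 0.938 and 9.25 ± 0.658 TPM (adjusted p = 0.0843 by limma), and C1qa was at 0 in all libraries. Of 7 neutrophil markers 1 was tested and 0 were called (1), namely Mpo, at 1.51 ± 0.0907 and 0.823 ± 0.268 TPM (adjusted p = 0.161 by limma), with list sums of 1.75 to 2.62 and 1.60 to 1.72 TPM. Ltf was at 0.343 ± 0.269 and 0.570 ± 0.0338 TPM, and S100a9 and Ly6g were at 0 in all libraries.

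The B cell list was the one of these marker lists, T cells aside, with called genes. Of 10 B cell markers 7 were tested (4), of which H2-Eb1, an MHC class II chain, rose from 8.29 ± 1.40 to 20.04 ± 2.76 TPM (adjusted p = 0.0203 by limma) and Igkc, the immunoglobulin kappa constant segment, from 9.22 ± 1.40 to 16.6 ± 0.524 TPM (adjusted p = 0.0284). Both calls were lost without vehicle 1, 2 or 3 or blebbistatin 3 and with no minimum level, and that of Igkc also without blebbistatin 1. The summed level of the list was 621 to 643 TPM with vehicle and 651 to 746 TPM with blebbistatin, with the highest sum in blebbistatin 3, where Cd74 stood at 163.6 TPM. The groups did not overlap in that sum, and its part in the difference of the platelet genes was not tested. Most of that sum was Ighm, at 499.96 ± 7.77 and 477 ± 12.6 TPM, and Cd74, at 76.9 ± 2.46 and 118 ± 39.8 TPM, and neither was called. H2-Aa, another MHC class II chain, was at 6.69 ± 1.64 and 13.2 ± 1.33 TPM (adjusted p = 0.0511 by limma). The groups overlapped for H2-Ab1, a further class II chain, at 20.5 ± 1.21 and 21.5 ± 4.73 TPM (adjusted p = 0.887 by limma). Cd79a, a chain of the B cell receptor, was at 0.402 ± 0.0343 and 1.216 ± 0.334 TPM with no overlap, and Ms4a1, a defining B cell surface gene, was at most 0.380 TPM. Cd79b, also a B cell receptor chain, overlapped between the groups, at 11.5 ± 2.17 and 14.6 ± 1.78 TPM (adjusted p = 0.231 by limma). Of 9 T cell markers, all tested (2), Thy1 fell from 1416 ± 21.4 to 1170 ± 36.0 TPM (adjusted p = 0.0377 by limma). That call was lost without vehicle 1, 2 or 3 or blebbistatin 3, with quantile normalization, without a trend and with no minimum level. Cd3g was at 542 ± 2.64 and 591 ± 52.3 TPM and Cd8b1 at 522 ± 7.18 and 565 ± 11.9 TPM, neither of them called. The summed level of the 9 T cell markers was 4623 to 4680 TPM with vehicle and lower, at 4395 to 4561 TPM, with blebbistatin. That sum is weighted to Thy1, the most abundant of the 9. By log2 difference 5 of the 9 were above 0 and 4 below, with a median of 0.03. The lower sum is therefore not read as a lower level of the T cell markers as a set.

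**Figure D4:**
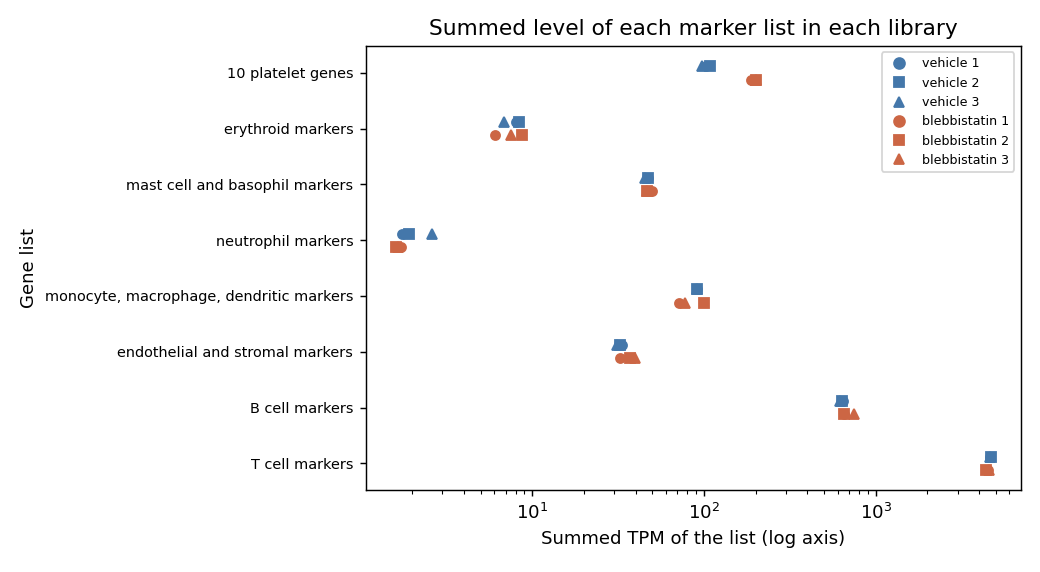
Summed TPM (log x axis) of the 10 chosen genes and of 7 marker lists (y axis) in the 3 vehicle libraries (blue) and the 3 blebbistatin libraries (orange). The 10 genes sum to between 97.1 and 108 TPM with vehicle and between 187 and 202 TPM with blebbistatin. B cell sums also lie apart and higher with blebbistatin. T cell sums, weighted to Thy1, the most abundant of the 9 T cell markers, lie apart and lower. Neutrophil sums also lie apart and lower, but near the floor, at 1.75 to 2.62 TPM with vehicle and 1.60 to 1.72 TPM with blebbistatin. The groups overlap for the erythroid, mast cell and basophil, monocyte, macrophage and dendritic cell, and endothelial and stromal lists.

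Likeness to the 2 platelet chemokines was measured over the 6 libraries as the root mean square difference from the mean profile of Pf4 and Ppbp, in log2(TPM + 1) relative to the vehicle mean. That mean profile stood at 1.17, 1.32 and 1.36 in blebbistatin 1, 2 and 3. Among 10136 genes outside the set whose mean reached 5 TPM, the closest were Plk2, a p53-induced kinase (0.13), H2-Eb1 (0.15), Trp53inp1, a p53-induced promoter of cell death (0.19), Ak1, an adenylate kinase (0.21), and Bcl2l2, a survival protein (0.22). Plk2 stood at 7.85, 7.13 and 7.56 TPM with vehicle and 18.1, 18.4 and 19.4 TPM with blebbistatin. By the same measure Parvb lay at 0.24, Treml1 at 0.29, Itgb3 and Clu at 0.30, Vwf at 0.34, Itga2b at 0.50, Plek at 0.54 and Gata1 at 0.82. These distances are on the log2(TPM + 1) scale, which compresses low genes such as Treml1, Clu, Parvb and Vwf. The 5 named genes are the closest of all those searched. Bcl2l2 had a vehicle mean of 4.79 TPM and reached the minimum of 5 TPM only through the blebbistatin libraries. Pf4 and Ppbp were chosen by their values in this comparison, so the search ranks genes by a similar rise between the groups. Nothing beyond that similar rise is read from the ranking.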

How the data were processed

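Gene tables of 6 libraries were used, made with a TruSeq RNA kit, which does not mark strand. The submitters' processing notes name build mm10, the tools StringTie 1.3.4 and HISAT2 2.1.0, and DESeq2 1.22.2, without their roles. The deposited TPM values sum to 1000000 per library, and the deposited FPKM values are proportional to them within a library. Deposited coverage is a mean read depth per gene. Coverage over FPKM and the commonest aligned length of 300 bases gave the implied fragments, an approximation that covers counting error only.

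The groups were compared with limma 3.58.1 (R 4.3.3, mean-variance trend) on log2(TPM + 1), for genes that reached a mean of 1 TPM, at an adjusted p of 0.05. This scale understates differences of low genes. The test was checked on simulated data. The 10 genes and all lists were chosen with earlier results of these data known. From each list, up to 5 called genes per direction and the 2 uncalled genes with the highest level were named. The 5 closest genes by likeness were named as well. Added after their values were seen were the genes of the split by level, the chemokine neighbours and genes named at or near 0. Also added then were Zfpm1, Mafk, Itga6, Runx1, Nfe2, H2-Aa, H2-Ab1, Cd79a and Cd79b. Exon overlaps came from GENCODE M21. Mpig6b was not matched by name. Alternatives changed the pseudocount, minimum level, unit, scaling, moderation, replicate block and library set. Figures used matplotlib 3.10.9.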

Additional observations from a re-analysis of the deposited data

How the results depend on the processing

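Each of the 10 genes kept its sign under each alternative that gave a value. Their median log2 difference of 0.95 became 1.14 with a pseudocount of 0.1 and 0.44 with one of 5, as the scale itself implies. With a minimum mean of 5 TPM or with FPKM no median of all 10 could be given, since Treml1, Clu and Parvb, and with 5 TPM also Vwf, fell under the minimum. The count of 244 called genes (187 higher, 57 lower) became 49 (40 and 9) with no minimum level, where more genes are tested, and 160 without a trend (23 lower). With median-ratio scaling 66.0% of calls were higher in place of 76.6%, 85.6% without a trend and 45.5% without blebbistatin 2, where 594 lower calls outnumbered 496 higher ones. Leaving out each library in turn gave 3 to 1090 calls, 3 to 496 higher and 0 to 594 lower. Among the other platelet and megakaryocyte genes this gave 0 to 4 higher and 0 to 4 lower. Without a trend 3 of these were higher (Serpine2, Mmrn1 and Thbs1), and with no minimum level 0 were lower. With the replicate number as a block 0 genes were called by limma, over all genes and in these lists, while 2628 of all tested genes had an unadjusted p under 0.05 (3065 without the block). Same-numbered libraries shared no deviation (correlations of 0.011, -0.037 and -0.034), so the numbers are not taken to pair them. Uncalled genes whose sign turned were Parvg (-0.0024) and Treml2 (-0.025) with median-ratio scaling, and, over the fits with 1 library left out, Ldb1 (-0.11 to 0.015), Prss34 (-0.16 to 0.015), Egfl7 (-0.27 to 0.092, and 0.0092 without vehicle 2), Hbb-bt (-0.0022 to 0.24) and Mcpt8 (-0.20 to 0.0082). The cause was not tested. Depth limits Treml1, Clu and Parvb, whose vehicle values rest on at most 16 implied fragments.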

Other observations

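Relatives of the 10 genes were read for their level. Treml2, a receptor gene of the same family as Treml1, was at 65.9 ± 0.669 and 66.7 ± 1.81 TPM (mean ± SD, n = 3 in each group; adjusted p = 0.868 by limma), against 0.975 and 2.90 TPM for Treml1. Treml4 and Trem2 were listed at 0 in all 6 libraries, and Trem1 in all but blebbistatin 3. Plek2, the paralog of pleckstrin, stayed between 0.0701 and 0.658 TPM. Gata2, which precedes Gata1 in megakaryocyte and mast cell progenitors, was at 2.16 ± 0.236 and 1.82 ± 0.132 TPM (adjusted p = 0.469 by limma).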
